A study of Mus musculus with 2 samples.

Results

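The genes of cholesterol and fatty acid synthesis were compared between a skin model labelled Itih5 knockout and a skin model labelled wildtype. Of 34 listed genes, 31 had at least 1 array probe set that the platform annotation gave to that gene alone, 32 probe sets in all, out of 22180 genes and 33793 probe sets on the array. Idi1 and Scd2 shared their probe set with another symbol, and Soat1 was not analysed here. For 27 genes the intensity could be read with confidence on both arrays, and all 27 were expressed in both models. For Msmo1, Nsdhl, Ebp and Srebf2 the level stayed undecided, and nearly all the probability lay on 1 small difference each. That probability was learnt from all probe sets, so a large difference can stay hidden.

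Both models were three-dimensional cultures of mouse keratinocytes and fibroblasts, grown from the skin of adult untreated animals and harvested for RNA at day 7 according to their titles. The knockout model was made from cells of Itih5 knockout mice and the wildtype model from cells of wild-type mice. ITIH5 is a heavy chain of the inter-alpha-trypsin inhibitor family, and the series treats it as a stabilizer of hyaluronan. The cells had been passaged serially until they grew without a collagen coat, so the models represent adapted cultures. The labels state neither the number of animals behind each model nor the part of Itih5 that was removed.

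Cells make cholesterol from acetyl-CoA through mevalonate, squalene and lanosterol, and they make fatty acids from the same precursor through malonyl-CoA. The transcription factors SREBP1 and SREBP2, encoded by Srebf1 and Srebf2, switch on both pathways when sterols are scarce. SCAP escorts the SREBP precursors to the Golgi, and the INSIG proteins hold them back when sterols are plentiful. In the epidermis cholesterol and free fatty acids are components, with ceramides, of the lipid layers between cornified cells.

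Values are array intensities whose lost decimal point was restored, and differences are log2 intensities of the knockout model minus the wildtype model. Each model was measured on 1 array, so the differences have no error estimate and were not tested. Precision is limited by this number of arrays, and genes were counted by the size of their difference alone. A gene counted as expressed where the higher of its intensities reached 46.5, the median of all restored values. Over all restored probe sets, the knockout array spanned intensities of 18.3 to 14117 and the wildtype array 18.5 to 15400.2. Itih5 itself read 30.4 on the knockout array and 29.8 on the wildtype array, under the threshold in both models. Since it did not count as expressed in the wildtype model either, its probe set gives no check of the labels. The deleted part is also unknown.

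The sterol and fatty acid genes were spread about as widely as expressed genes in general. With the sign ignored, the median log2 difference was 0.27 over the 27 genes and 0.26 over all expressed genes. Fads1, the delta-5 desaturase of polyunsaturated fatty acids, was the 1 gene of the 27 to read at least 2-fold higher in knockout, and 0 read at least 2-fold lower. Among all 12732 expressed genes the corresponding shares were 3.75% higher and 3.31% lower. In simulated data changes between 2-fold and 4-fold were decided less often than other probe sets of the same level range, so these shares may be too low. The median difference was 0.08 over the 27 genes and 0.04 over all expressed genes, an order that depends on which readings are used. Of the 27 genes, 23 (85.2%) lay within 1.5-fold, against 80.1% of all expressed genes. Restricted to the 10125 expressed genes at levels between the lowest and the highest of the 27, the background shares were 4.51% higher and 3.84% lower.

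**Figure D1:**
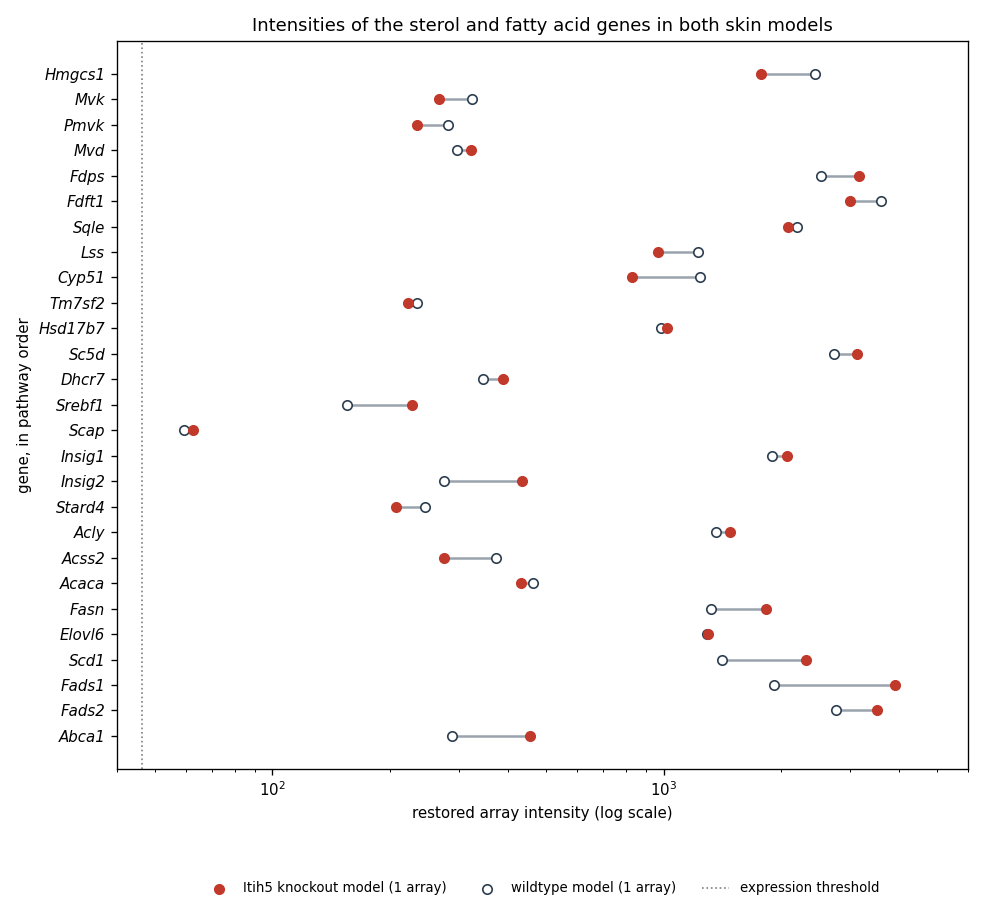
Restored intensities (horizontal log axis) of the 27 genes with a decided level, in pathway order from top to bottom. Filled red circles are the knockout model, open circles the wildtype model, and each grey line joins the values of 1 gene. Most pairs lie close together, and the widest gap is that of Fads1, with 3919 on the knockout array and 1918 on the wildtype array. Levels of different genes come from different probes and are not comparable.

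At 1.5-fold, 4 of the 27 genes were higher in the knockout model, where the share over all expressed genes was 11.5%, and 0 were lower, where it was 8.35%. The higher ones were Fads1, Scd1, Insig2 and Abca1. None of them encodes an enzyme between acetyl-CoA and cholesterol. All 13 decided enzymes of sterol synthesis lay within 1.5-fold, 8 of them below 0 and 5 above 0, with a median of -0.08. Just inside that limit stood Cyp51 on the lower side, 1.49-fold lower, and Srebf1 on the higher side, 1.47-fold higher. Of the sterol enzymes, Mvk, Mvd, Cyp51 and Sc5d had several possible readings, and the choice between readings favours small differences.

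**Figure D2:**
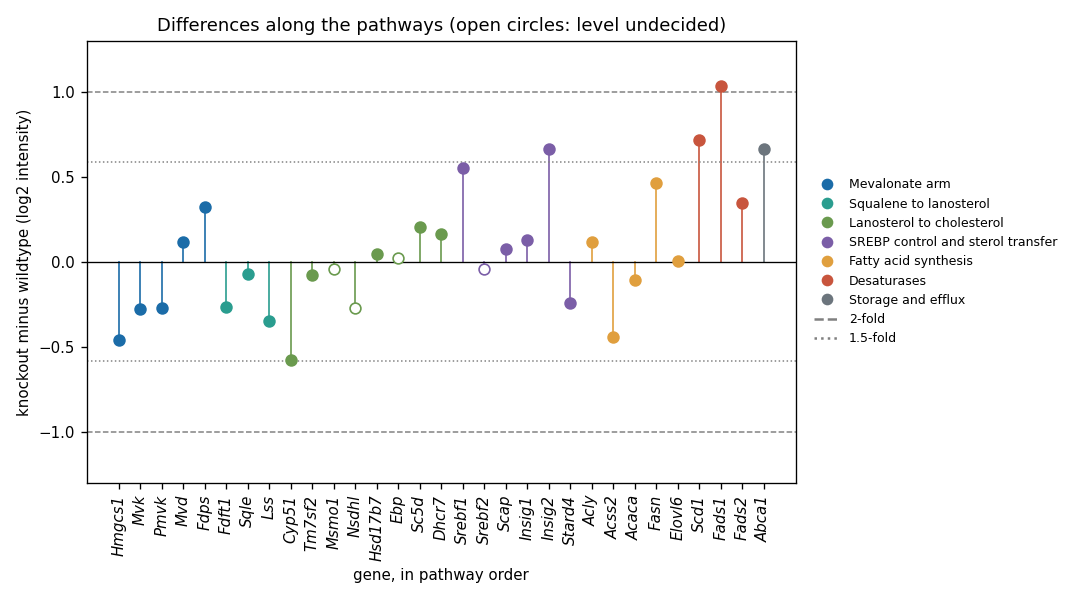
Difference between knockout and wildtype model (vertical axis, log2 intensity) of each gene in pathway order, coloured by role. Open circles are the 4 genes with an undecided level, dotted lines mark 1.5-fold and dashed lines 2-fold. Enzymes up to Cyp51 lie mostly below 0, the 3 desaturase genes lie above 0, and Fads1 alone passes the upper dashed line at 1.03.

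The keratinocyte and dermal fibroblast markers differed far more between the models than these genes. Of 12 keratinocyte markers, 10 were decided and expressed, all 10 read lower in the knockout model, and 6 were at least 2-fold lower (median -1.12). The decided markers of that list summed to 15527 on the knockout array and 34919 on the wildtype array. Of 12 dermal fibroblast markers, 10 were decided and expressed, all 10 read higher in the knockout model, and 2 were at least 2-fold higher (median 0.83). Their summed intensity, with Lum under the threshold, was 16393 on the knockout array and 9494 on the wildtype array. In a mixed culture, fewer cells of a type and less RNA per cell cannot be told apart, and the part of this shift in the differences described here was not tested.

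In the mevalonate arm, which carries acetyl units to the isoprenoid precursors of squalene, 3 of the 5 decided genes read lower in knockout and 2 higher, around a median of -0.27. Hmgcs1, the cytosolic HMG-CoA synthase that opens the arm, read 1779 on the knockout array and 2441 on the wildtype array. That was 1.37-fold lower, a log2 difference of -0.46, and the lowest of the 18 genes with only 1 possible reading.

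The start region of Hmgcs1 is printed because it was the 1 window among those of these genes that held the sterol regulatory element TCACNCCAC, which SREBP proteins bind. The window spans the 250 bases before and 50 bases after the annotated start, chr13:119690101-119690400, plus strand, of GRCm38.p6, from RefSeq. Capitals mark that element, the NF-Y box CCAAT, the GC box GGGCGG and the E-box CACGTG on either strand, with no overlap between matches.
Hmgcs1: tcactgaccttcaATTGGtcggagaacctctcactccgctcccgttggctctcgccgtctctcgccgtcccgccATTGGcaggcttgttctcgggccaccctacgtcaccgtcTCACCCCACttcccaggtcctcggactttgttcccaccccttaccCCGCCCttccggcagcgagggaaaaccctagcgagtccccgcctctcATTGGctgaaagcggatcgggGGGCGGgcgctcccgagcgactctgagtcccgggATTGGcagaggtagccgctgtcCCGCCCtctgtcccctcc

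This window held 1 TCACNCCAC, 4 CCAAT and 3 GGGCGG matches and 0 CACGTG matches. Windows of 25 of the 31 genes were in the table, 33 windows in all because some genes have several starts. TCACNCCAC was found in 1 of the 33 (3.03%) and in 1.24% of all 32851 windows of the table. CCAAT was found in 21 of the 33 (63.6%), against 37.4% of all windows and 38.2% of those of protein-coding genes. GGGCGG stood in 25 (75.8%), against 35.7% and 46.2%, and CACGTG in 7 (21.2%), against 7.15% and 7.84%. These are matches of letters in a short window and not measured binding sites.

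The next enzymes of the arm differed less. Mvk, mevalonate kinase, read 267 on the knockout array and 324 on the wildtype array, a difference of -0.28. Pmvk, phosphomevalonate kinase, read 234 on the knockout array and 282 on the wildtype array, a difference of -0.27. The kinases catalyse successive phosphorylations, and their differences were nearly the same. Mvd, the decarboxylase that follows, read 321 on the knockout array and 296 on the wildtype array (0.12). Fdps, farnesyl diphosphate synthase at the branch point to sterols and other isoprenoids, read 3169.7 on the knockout array and 2532 on the wildtype array. At 0.32 it was the highest of the sterol enzymes.

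All 3 enzymes from farnesyl diphosphate to lanosterol read lower in knockout (median -0.26). Fdft1, squalene synthase, read 2998 on the knockout array and 3601 on the wildtype array (-0.26). Sqle, the squalene epoxidase, read 2086 on the knockout array and 2191 on the wildtype array (-0.07). Lss, lanosterol synthase, which closes the sterol rings, read 965 on the knockout array and 1227 on the wildtype array (-0.35). None of the 3 reached 1.5-fold, and all 3 had 1 possible reading.

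Of 8 genes between lanosterol and cholesterol, 5 had a decided level, with a median of 0.04. Cyp51, the lanosterol demethylase, read 830.1 on the knockout array and 1239 on the wildtype array, a difference of -0.58. Its knockout value had 3 possible readings, and the one used had a probability of 0.97. The other readings would give differences of -3.90 and 2.74. Tm7sf2, a sterol reductase that follows Cyp51, read 222 on the knockout array and 234 on the wildtype array (-0.08).

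Later enzymes of this stretch were close to equal or slightly higher. Hsd17b7, the 3-ketosteroid reductase, read 1018 on the knockout array and 987 on the wildtype array (0.04). Sc5d, the sterol desaturase of the late pathway, read 3133 on the knockout array and 2722 on the wildtype array (0.20). Dhcr7, the reductase that turns 7-dehydrocholesterol into cholesterol, read 388 on the knockout array and 346 on the wildtype array (0.17). In skin 7-dehydrocholesterol is also the precursor of vitamin D.

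Msmo1, Nsdhl and Ebp, which act in the same stretch, had several possible levels, with nearly all the probability on 1 difference each. Msmo1, the methylsterol monooxygenase, read either 126 on the knockout array and 130.03 on the wildtype array or 1264 on the knockout array and 1300.3 on the wildtype array. Both readings give -0.04, and their probabilities sum to 0.997. Nsdhl, which removes the oxidised methyl groups, read 281 on the knockout array and 339 on the wildtype array at its likeliest, with a summed probability of 0.99 for the difference of -0.27. Ebp, the sterol isomerase, read 525 on the knockout array and 516 on the wildtype array, or 10 times those values, a difference of 0.02 with a summed probability of 0.995. The remaining probability lies on differences of about 10-fold, since a point moved by 1 digit shifts a difference by 3.32.

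**Figure D3:**
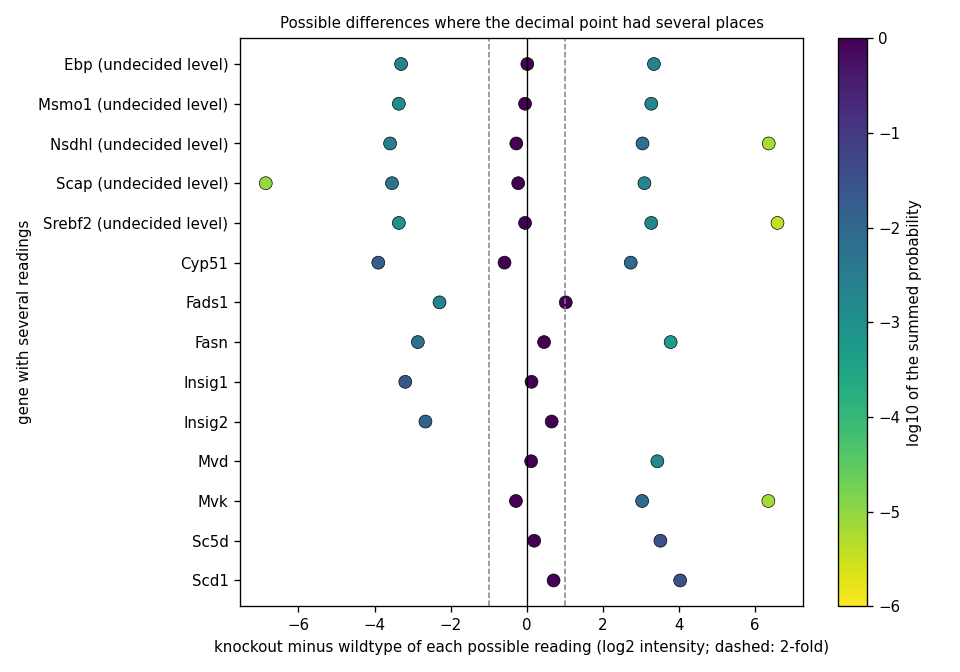
Every possible difference (horizontal axis, log2 intensity of knockout minus wildtype) for the probe sets with several readings, with the probability of each difference as colour. Dashed lines mark 2-fold. Each gene has 1 dark point that holds nearly all the probability, and apart from Fads1 at 1.03 these points lie between the dashed lines.

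Of the 5 decided genes that control the pathway or move sterols, 4 read higher in knockout, around a median of 0.13. One of the 4 is Scap, whose brighter probe set, undecided in level, read lower. Srebf1 read 228 on the knockout array and 155 on the wildtype array, 1.47-fold higher, with 1 possible reading. SREBP1 proteins mainly drive fatty acid genes, and SREBP2 mainly drives sterol genes. Srebf2 had an undecided level, with 99.3 on the knockout array and 102 on the wildtype array as the likeliest reading. Its difference of -0.04 had a summed probability of 0.997.

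Insig2 and Insig1 encode the endoplasmic reticulum anchors of SCAP. Insig2 read 435 on the knockout array and 275 on the wildtype array, 1.58-fold higher, with a probability of 0.99. Insig1, itself a target of SREBP, read 2075 on the knockout array and 1899 on the wildtype array, a difference of 0.13. On the log2 scale Insig2 differed by 0.66, so the closely related genes differed by unlike amounts. The other reading of each, with probabilities of 0.012 for Insig2 and 0.023 for Insig1, would make it lower in the knockout model.

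The start regions of Insig2 are shown because it was among the 4 genes at least 1.5-fold higher and has 3 annotated starts, which its 1 probe set does not separate. All lie on the minus strand of GRCm38.p6 and come from RefSeq, at chr1:121332540-121332839, chr1:121327975-121328274 and chr1:121327629-121327928. Capitals have the same meaning as before.
Insig2, upstream start: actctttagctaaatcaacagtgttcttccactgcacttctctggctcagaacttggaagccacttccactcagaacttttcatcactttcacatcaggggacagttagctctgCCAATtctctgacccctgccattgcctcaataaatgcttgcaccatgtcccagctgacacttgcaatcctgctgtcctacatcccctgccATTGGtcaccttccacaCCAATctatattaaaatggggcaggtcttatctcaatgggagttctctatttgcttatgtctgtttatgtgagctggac
Insig2, middle start: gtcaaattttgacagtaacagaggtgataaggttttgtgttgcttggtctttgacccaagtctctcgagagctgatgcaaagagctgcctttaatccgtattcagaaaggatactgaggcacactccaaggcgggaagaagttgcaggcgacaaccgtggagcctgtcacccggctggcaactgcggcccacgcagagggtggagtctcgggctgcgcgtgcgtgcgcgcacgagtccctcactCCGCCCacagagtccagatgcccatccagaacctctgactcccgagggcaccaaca
Insig2, downstream start: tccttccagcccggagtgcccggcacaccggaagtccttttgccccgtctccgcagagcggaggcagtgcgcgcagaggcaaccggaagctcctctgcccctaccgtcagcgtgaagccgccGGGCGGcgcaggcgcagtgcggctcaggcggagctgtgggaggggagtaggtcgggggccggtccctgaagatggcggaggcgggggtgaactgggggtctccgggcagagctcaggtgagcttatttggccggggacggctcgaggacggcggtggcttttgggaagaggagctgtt

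The upstream window held 3 CCAAT matches and 0 GGGCGG matches, and each of the other windows held 1 GGGCGG and 0 CCAAT matches. TCACNCCAC was in none of the 3 windows.

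Scap and Stard4 differed little. Scap read 62.7 on the knockout array and 59.4 on the wildtype array on its decided probe set (0.08), not far above the expression threshold. Its brighter probe set had an undecided level, with 426 on the knockout array and 496 on the wildtype array as the likeliest reading, and its difference of -0.22 had a summed probability of 0.993. The probe sets therefore disagree in sign at small differences. Stard4, a carrier of cholesterol between membranes, read 207 on the knockout array and 245 on the wildtype array (-0.24).

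Fatty acid synthesis as a group was centred on 0, with a median of 0.0049 over 5 genes, 3 above and 2 below. Acly, the ATP citrate lyase that supplies cytosolic acetyl-CoA, read 1483 on the knockout array and 1366 on the wildtype array (0.12). Acss2, which makes acetyl-CoA from acetate instead, read 275 on the knockout array and 374 on the wildtype array (-0.44). The pair of acetyl-CoA sources thus lay on either side of 0, both within 1.5-fold. Acaca, the carboxylase that commits acetyl-CoA to fatty acids, read 431 on the knockout array and 464 on the wildtype array (-0.10).

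Fasn, the multifunctional fatty acid synthase, read 1825 on the knockout array and 1324 on the wildtype array, 1.38-fold higher. Its likeliest pair had a probability of 0.97, and 0.99 together with the pair 10 times as high that gives the same difference. Elovl6, which extends palmitate to stearate, read 1299.9 on the knockout array and 1296 on the wildtype array. At 0.0049 this was the smallest difference of all 27 genes, and both values had 1 possible reading.

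The desaturases had the largest median difference of the roles. All 3 decided genes read higher in knockout, and their median was 0.71, the value of Scd1. Among relatives outside the listed genes, Scd4 read lower, with 63.7 on the knockout array and 80.7 on the wildtype array. Fads6 read higher, with 93.3 on the knockout array and 75.1 on the wildtype array. Scd3 was under the threshold and Fads3 was undecided. Fads1 read 3919 on the knockout array and 1918 on the wildtype array, 2.04-fold higher. The reading had a probability of 0.998, and the other one, with 19176 in the wildtype model, would make Fads1 lower in the knockout model. Under 9 alternative ways of processing, its difference ran from 1.02 to 1.06 wherever it had a value, just past 2-fold. Only normalization and the pseudocount changed it, and neither measures variation between arrays. The other alternatives left the value as it was or removed it.

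Scd1, the stearoyl-CoA desaturase that makes oleate and palmitoleate, read 2321 on the knockout array and 1414 on the wildtype array, 1.64-fold higher. Its wildtype value had another possible reading of 141, with a probability of 0.037, which would give 4.04. Fads2, the delta-6 desaturase that precedes Fads1 in the same pathway, read 3516 on the knockout array and 2764 on the wildtype array, 1.27-fold higher with 1 possible reading.

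Markers of lipid-storing cells were examined beside the desaturases. Of 7 expressed adipocyte markers out of 12 listed, 3 stood at least 2-fold higher in knockout and none at least 2-fold lower. Of those 3, Lpl and Cd36 reached the threshold on the knockout array alone, with 84.7 and 83.9, against 42.3 and 33.5 on the wildtype array. Retn was the 1 expressed marker of this list below 0, with 48.8 on the knockout array and 53.3 on the wildtype array. The decided markers of the list summed to 5973 on the knockout array and 1468 on the wildtype array. Fabp4, a fatty acid binding protein, made up most of that sum with 4974 on the knockout array and 816 on the wildtype array. Adipoq, Cidec, Lep and Car3 were under the threshold in both models. Of 12 sebocyte markers only Pparg and Cidea were decided and expressed, and 7, among them Mc5r, Awat1 and Awat2, were under the threshold in both models. Cidea, a lipid droplet protein, was at least 2-fold lower in knockout, with 69.7 on the knockout array and 360.1 on the wildtype array, and 0 sebocyte markers were at least 2-fold higher. The decided sebocyte markers summed to 798 on the knockout array and 994 on the wildtype array. Macrophage, endothelial and melanocyte lists had 5, 3 and 5 expressed markers, of which 1, 1 and 2 were at least 2-fold higher and 0 lower. Below 0 lay 3 of the macrophage, 1 of the endothelial and 1 of the melanocyte markers, and the macrophage median was -0.41. Kdr, the endothelial marker past 2-fold, reached the threshold on the knockout array alone (87.4, against 36.1 on the wildtype array). The melanocyte markers past 2-fold were Mlana, with 705 on the knockout array and 109 on the wildtype array, and Mitf, with 464 and 215. Tyr, Tyrp1 and Dct of the melanocyte list were under the threshold in both models. The part of such cells in the desaturase values was not tested.

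Abca1, which exports cholesterol to apolipoproteins and is a classical target of the oxysterol receptors LXR, was the 1 decided gene of storage and efflux. It read 456 on the knockout array and 288 on the wildtype array, 1.58-fold higher, with 1 possible reading. Of the 4 genes at least 1.5-fold higher, it was the 1 whose values had no other reading. No window was available for Fads1 or Scd1. The start region of Abca1, chr4:53159846-53160145 on the minus strand of GRCm38.p6, is printed for comparison with that of Hmgcs1, which read 1.37-fold lower.
Abca1: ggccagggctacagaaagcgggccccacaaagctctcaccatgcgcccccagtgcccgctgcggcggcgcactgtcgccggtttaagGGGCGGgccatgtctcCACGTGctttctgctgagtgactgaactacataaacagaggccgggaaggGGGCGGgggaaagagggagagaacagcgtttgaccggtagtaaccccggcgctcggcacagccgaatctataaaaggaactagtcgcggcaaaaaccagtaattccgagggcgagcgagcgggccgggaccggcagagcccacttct

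Capitals again mark the motifs, here 2 GGGCGG matches and 1 CACGTG match, with 0 TCACNCCAC and 0 CCAAT matches. Hmgcs1 and Abca1 thus share only the GC box among the motifs searched.

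**Figure D4:**
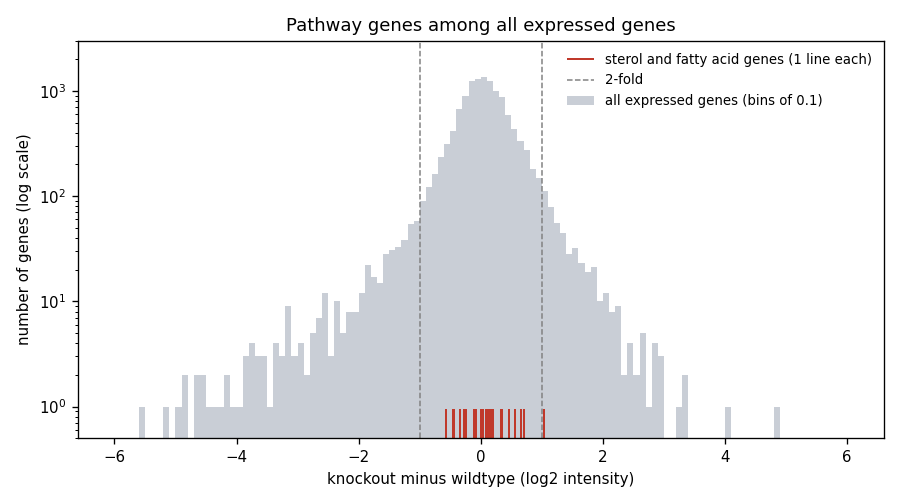
Number of genes (vertical log axis) by difference between knockout and wildtype model (log2 intensity, bins of 0.1) for all 12732 expressed genes in grey. Each red line at the base is 1 of the 27 sterol and fatty acid genes, and dashed lines mark 2-fold. The red lines run from -0.58 to 1.03 and the grey distribution from -5.51 to 4.82, but such ranges widen with the number of genes. The quartiles are -0.25 and 0.34 for the 27 genes and -0.21 and 0.31 for all expressed genes.

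Other genes of sterol and fatty acid handling were taken from a list of 60, of which 37 were decided and expressed. Past 2-fold were 4 of them on the higher side and 3 on the lower, and the median was 0.14. The list lost 11 genes that were not analysed here, 7 with an undecided reading and 5 under the threshold. Of the 37, 62.2% lay within 1.5-fold, against 85.2% of the 27 synthesis genes and 80.1% of all expressed genes.

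Genes of sterol movement held the largest differences on that list, in both directions. Gramd1b, which carries cholesterol from the plasma membrane to the endoplasmic reticulum, read 634 on the knockout array and 133 on the wildtype array, 4.77-fold higher. Gramd1c, a relative with the same type of lipid-binding domain, read 77.2 on the knockout array and 737 on the wildtype array, 9.55-fold lower, with 1 possible reading. Npc1, the lysosomal cholesterol exporter, read 1231 on the knockout array and 593 on the wildtype array, 2.07-fold higher. Lipa, the lysosomal lipase that frees cholesterol from its esters, read 942 on the knockout array and 454 on the wildtype array, also 2.07-fold higher. These genes of lysosomal release had 1 possible reading each.

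On the fatty acid side of the list, Acsl4, which activates long polyunsaturated fatty acids, read 1235 on the knockout array and 481 on the wildtype array, 2.57-fold higher. Me1, the malic enzyme that supplies NADPH, read 341 on the knockout array and 711 on the wildtype array, 2.09-fold lower. Mid1ip1, an activator of acetyl-CoA carboxylase, read 338 on the knockout array and 688 on the wildtype array, 2.04-fold lower.

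**Figure D5:**
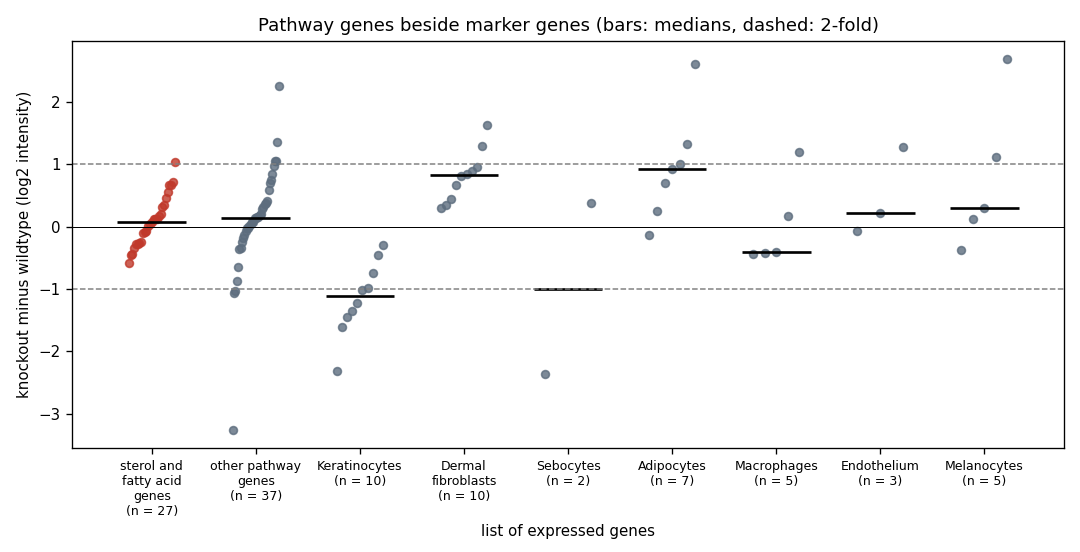
Differences between knockout and wildtype model (vertical axis, log2 intensity) of the expressed genes of each list, 1 point per gene, with medians as bars and 2-fold as dashed lines. The sterol and fatty acid genes (red, n = 27) lie around a median of 0.08, the keratinocyte markers around -1.12 and the dermal fibroblast markers around 0.83.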

How the data were processed

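RNA of 2 skin models was measured on 1 Affymetrix array each, after sense-strand cDNA amplification and biotin labelling, per the labels' protocols. The deposited values are linear probe set intensities; scanner software, summary and normalization are not stated there. Of 67586 values, 129 had kept a decimal point, with at most 2 decimals, and 67457 had lost it. A place was possible if it left at least 3 decimals, gave a value between 18 and 20000, and fitted what single-precision arithmetic prints for 2 raised to a single-precision exponent. Every value had a possible place, and 21121 of 33793 probe sets (62.5%) had 1 reading. For the others, probabilities came from the joint distribution of level and absolute difference over all probe sets, learnt in 25 rounds of expectation maximisation. The minimum probability was 0.95, which restored 31907 probe sets (94.4%), with 46.8 expected errors. These limits were set after the values were seen, and the method was tested on simulated data. There, few points were misplaced, but changes between 2-fold and 4-fold were decided less often than other probe sets of the same level range, and changes near 10-fold were misplaced more often.

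Log2 intensities were compared without further normalization, since the medians were 46.3 on the knockout array and 46.7 on the wildtype array. Probe sets with 1 symbol were named by the platform annotation, and the probe set with the highest mean stood for its gene. Every listed gene was named, and of the other pathway genes those at least 2-fold apart and some relatives of named genes. The genes and lists were chosen with earlier results of these data known. Alternatives covered the choice of reading, normalization, a pseudocount, the filter, the probe set rule and the fold. Python 3.11.15, numpy 2.4.6 and pandas 2.3.3 were used.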

Additional observations from a re-analysis of the deposited data

How the results depend on the processing

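No paired analysis was possible because there is 1 array on each side, which also leaves no array that could be dropped. Under each alternative that kept the 2-fold threshold and gave Fads1 a value, it was the gene counted as higher. With 1 possible reading only, the count was 0, because Fads1 has 2 readings, and the median difference of the 18 remaining genes was -0.033, against 0.08 in the main analysis. It was 0.0049 at a minimum probability of 0.99 (21 genes) and with every likeliest reading (31 genes). In these 3 settings it lay below the median of all expressed genes, at 0.026, 0.033 and 0.044, so the order of the medians depends on the readings used. By construction, a threshold of 1.5-fold gave 4 higher genes and one of 3-fold gave 0. No setting made any of these genes at least 2-fold lower. Over all expressed genes, 478 were higher and 421 lower at 2-fold. The 1.5-fold threshold gave 1467 higher and 1063 lower, the 3-fold threshold 130 and 184, and 312 were higher with 1 possible reading only, where 8280 genes were tested. Of 228 values of single genes under alternatives, 1 moved by over 0.1 and changed sign. It was that of Scap, at -0.22 with every likeliest reading, since its other probe set then counted, and 3 of 6 genes of control and sterol transfer then read higher. The comparison with genes of the same level range and the sum over readings of equal difference were chosen after seeing the data. A true difference near 10-fold can be hidden where a value has several readings, so only the 18 genes with 1 reading escape this doubt. Their differences still have no error estimate, with 1 array on each side.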

Other observations

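Some genes linked to the LXR receptors were singled out after their values were seen, and those named here did not share a direction. They do not cover all genes linked to these receptors. Beside Abca1, which read 1.58-fold higher in the knockout model, Nr1h3, the gene of LXR alpha, read 109 on the knockout array and 67.1 on the wildtype array. Abcg1, another cholesterol exporter, read 189 on the knockout array and 344 on the wildtype array, 1.82-fold lower. Mylip, a ubiquitin ligase, read 369 on the knockout array and 579 on the wildtype array, 1.57-fold lower with 1 possible reading. None of these genes reached 2-fold.

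Gramd1a, of the same family as Gramd1b and Gramd1c, read 307 on the knockout array and 171 on the wildtype array, 1.80-fold higher, so the family members a, b and c lay at 0.85, 2.25 and -3.26. Nceh1, which hydrolyses cholesteryl esters, read 609 on the knockout array and 361 on the wildtype array, 1.69-fold higher. These genes were also singled out after their values were seen.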
